A study of Saccharomyces cerevisiae with 15 samples.

Results

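The comparison described here set methionine against leucine as the sole nitrogen source of Saccharomyces cerevisiae. The differences rest on the 6 arrays whose labels name either amino acid, 3 for methionine and 3 for leucine, of 15 arrays in the series. The other 9 arrays came from cultures on asparagine, proline or phenylalanine, 3 each, and they place each level among the nitrogen sources. They also entered the fit, so standard errors, intervals and p-values depend on the spread within every source. All cultures were of CEN.PK113-7D, a prototrophic haploid laboratory strain, and all were aerobic chemostats in which glucose (7.5 g/l in the medium) limited growth. Nitrogen was therefore not the limiting nutrient. Methionine was supplied at 11.3 g/l and leucine at 10.0 g/l. Both media also held potassium sulfate at 6.6 g/l, so an inorganic sulfur source was present on either amino acid. The dilution rate was 0.10 per hour at 30 °C and pH 5.0, with dissolved oxygen above 50%, and sampling followed 10 to 14 volume changes. The labels state triplicates for each source without saying that these were separate cultures, so the p-values measure the spread between these arrays, which may be technical.

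Yeast makes its sulfur amino acids by taking up sulfate, reducing it to sulfide and joining the sulfide to a carbon chain made from aspartate, and the activator Met4 with its DNA-binding partners Cbf1, Met31 and Met32 turns these genes on when methionine, cysteine or S-adenosylmethionine runs short. Leucine is made from a valine precursor through isopropylmalate, and the activator Leu3 depends on that intermediate. When either amino acid serves as a nitrogen source, a transaminase removes its amino group, and the remaining keto acid can be decarboxylated and reduced to a fusel alcohol or oxidised to an acid by the Ehrlich pathway.

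Each value is a signal, a linear intensity of 1 probe set on 1 array, and signals are compared only within a probe set. Signals correlated across probe sets at 0.973 to 0.982 between methionine arrays and at 0.968 to 0.982 between leucine arrays, against 0.908 to 0.947 between the groups. The actin ratio of 3' to 5' signal was 1.76 ± 0.103 with methionine and 2.11 ± 0.285 with leucine (SD, n = 3). The ribosomal RNA control signal was 187 ± 228 with methionine and 100.2 ± 103 with leucine, and methionine 2 (450.0) and leucine 3 (217) were the highest of their groups (arrays are named by source and replicate number). The strain is of mating type a, and 7 MATa haploid markers summed to signals of 5670 to 6662 with methionine and 2455 to 3065 with leucine. A large part of these sums came from MFA1, whose probe set shares sequence with other genes, with means of 3134 and 1209. Such sums are compared between the sources within a list and not between lists. The 5 MATalpha markers summed to 150.5 to 153.9 with methionine and 152.2 to 168.2 with leucine. Meiosis and sporulation markers summed to 83.1 to 104.7 and 134.4 to 156.9, in the same order, and no marker was listed at 0. On each source, however, 6 of the 8 meiosis markers had means at or below 10, the 25th percentile of all signals. The highest signal of a single meiosis marker was 59.6 with methionine and 103.5 with leucine.

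Of 7445 probe sets tested, 1404 (18.9%) differed between methionine and leucine at an adjusted p under 0.05 (limma, Benjamini-Hochberg adjustment), 523 higher (7.02%) and 881 lower (11.8%) with methionine. A difference of at least 2-fold was found for 526 of the called probe sets (7.07% of those tested), 226 higher and 300 lower. Arrays of the groups did not overlap for 3364 probe sets (45.2%), so a gap between the groups was common without a call. Taking 1 probe set per gene, 946 of 5384 genes (17.6%) were called, 329 higher (6.11%) and 617 lower (11.5%), and the median difference of all genes was -0.08 on the log2 scale. The direction of small differences depended on scaling. As deposited, 37.3% of the calls were higher with methionine, against 46.7% after quantile normalization and 59.5% after centring each array on its median, where the median over probe sets moved from -0.08 to -0.03 and 0.05. The calls also thinned when 1 array was left out, to 699 probe sets without methionine 2 and 852 without leucine 2.

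Set among the other nitrogen sources, the called genes differed in which of the amino acids stood apart. The methionine mean alone lay outside the range of the asparagine, proline and phenylalanine means for 343 genes (36.3%, against 23.9% of all 5384 genes), the leucine mean alone for 185 (19.6% against 15.8%) and both for 363 (38.4% against 33.0%). For 55 genes (5.81% against 27.2%) neither did. Some of the largest differences are named in the plot of difference against level: the sulfate and methionine genes MET2, MHT1, MMP1 and MET32 at the bottom, and the heat shock gene HSP30 and the starvation-induced gene YGP1 at the top. YNL194C and YCL048W-A, which the plot does not name, lay between HSP30 (4.37) and YGP1 (3.39), at log2 differences of 3.48 and 3.43.

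**Figure D1:**
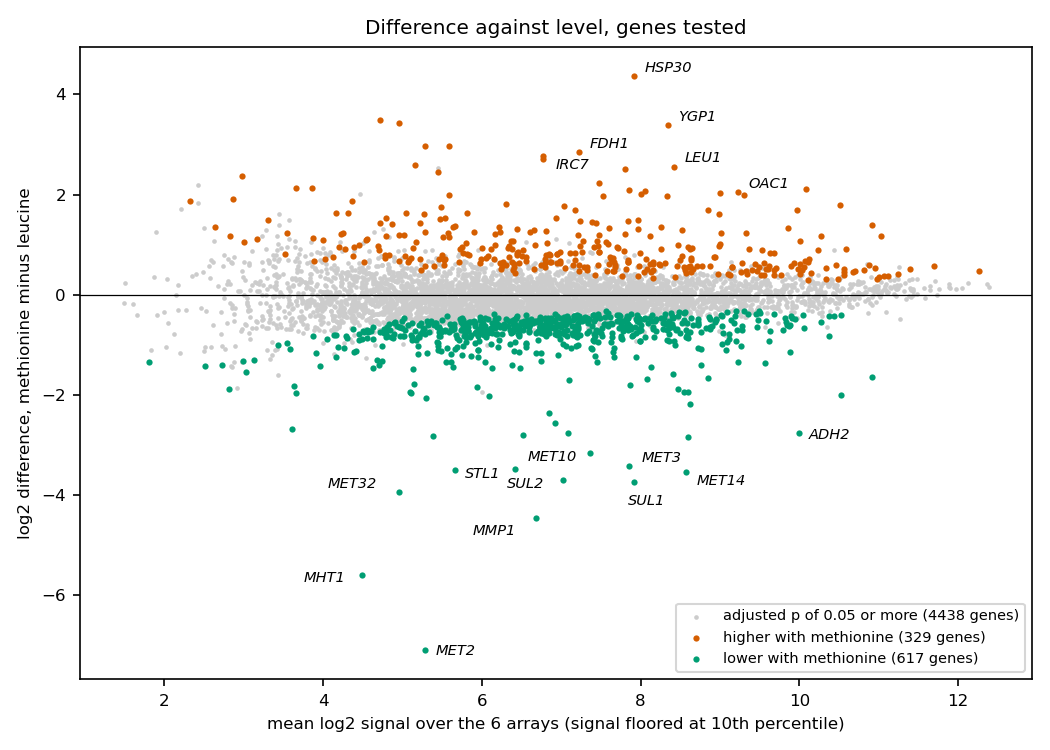
Log2 difference between methionine and leucine (y axis) against the mean log2 signal over the 6 arrays (x axis) for 5384 genes, 1 point per gene. Genes higher with methionine (329) and lower with methionine (617) at an adjusted p under 0.05 are coloured, and genes of sulfate and methionine metabolism hold the lowest positions, down to MET2 at -7.10.

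Sulfate uptake and reduction was lower with methionine as a whole: all 10 genes of the list were called lower, with a median log2 difference of -3.29. The first step is carried out by the sulfate permeases. SUL1 (YBR294W) had signals of 79.4, 58.8 and 61.8 with methionine and 976.5, 843.3 and 842.8 with leucine. SUL2 (YLR092W) had signals of 39.4, 31.6 and 37.9 with methionine and 427.7, 594.5 and 400.8 with leucine. Both permease genes stood an order of magnitude apart between the sources with no overlap, SUL1 13.4-fold (log2 difference -3.74 ± 0.17 (SE), adjusted p = 4.28e-10) and SUL2 12.9-fold lower (log2 difference -3.69 ± 0.19 (SE), adjusted p = 1.67e-09). Inside the cell, ATP sulfurylase activates the sulfate, and its gene MET3 (YJR010W) gave 65.3, 64.4 and 85.3 with methionine and 767.9, 772.3 and 739 with leucine, a 10.7-fold difference (log2 difference -3.42 ± 0.13 (SE), adjusted p = 8.25e-11). The next enzyme, adenylylsulfate kinase, is encoded by MET14 (YKL001C), which gave 114, 102.9 and 117.5 with methionine and 1174.6, 1564.9 and 1195.6 with leucine and was 11.7-fold lower (log2 difference -3.55 ± 0.13 (SE), adjusted p = 5.21e-11). All 3 methionine arrays of both genes lay far below every leucine array.

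The reducing enzymes followed the same pattern. MET16 (YPR167C), the reductase that releases sulfite, had signals of 57.5, 51.5 and 55.9 with methionine and 468.2, 503.4 and 507 with leucine, which made it 8.97-fold lower (log2 difference -3.17 ± 0.16 (SE), adjusted p = 1.65e-09). Sulfite reductase needs the products of MET5 and MET10. Signals of MET5 (YJR137C) were 136.9, 144.8 and 155.6 with methionine and 1033.3, 1020.7 and 1064.5 with leucine, 7.14-fold lower (log2 difference -2.84 ± 0.10 (SE), adjusted p = 5.21e-11). Those of MET10 (YFR030W) were 26.1, 25.6 and 25 with methionine and 316.9, 273.7 and 266 with leucine, 11.1-fold lower (log2 difference -3.48 ± 0.14 (SE), adjusted p = 8.9e-11). The replicates of each group were tight beside the gap. Smaller differences were found for MET1 and MET8, which make the sirohaem cofactor of sulfite reductase, and for MET22, the phosphatase that clears the nucleotide by-product of the reduction. MET1 was 3.82-fold lower (log2 difference -1.93 ± 0.13 (SE), adjusted p = 8.75e-08) and MET22 1.64-fold lower (log2 difference -0.71 ± 0.11 (SE), adjusted p = 0.000351). MET8, with 23.7, 37.1 and 23.1 with methionine and 42.6, 44.7 and 62.6 with leucine, was 1.80-fold lower (log2 difference -0.85 ± 0.27 (SE), adjusted p = 0.042), and its call was lost when any single array other than methionine 2 was left out (adjusted p = 0.061 to 0.154), and in 11 of 19 alternatives in all.

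Against the other nitrogen sources, it was the methionine arrays that stood apart in this list, and the leucine arrays lay at the upper end. For SUL1 the means were 658 ± 76.5 with asparagine, 831 ± 121 with proline and 665 ± 130.0 with phenylalanine, beside 888 ± 77.0 with leucine and 66.7 ± 11.1 with methionine (SD, n = 3). For MET3 they were 703 ± 97.1 with asparagine, 760.4 ± 37.6 with proline and 680.4 ± 58.7 with phenylalanine, beside 759.7 ± 18.1 and 71.7 ± 11.8. Methionine gave the lowest mean of the 5 sources for 8 of the 10 genes and leucine the highest for 8, where over all genes methionine was lowest for 25.9% and leucine highest for 22.7%. MET22 showed the other side of this pattern, since its mean with methionine, 486 ± 9.91, lay near 465 ± 42.9 with asparagine, 479 ± 19.8 with proline and 476 ± 26.6 with phenylalanine, and leucine, at 799 ± 71.1, lay above.

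**Figure D2:**
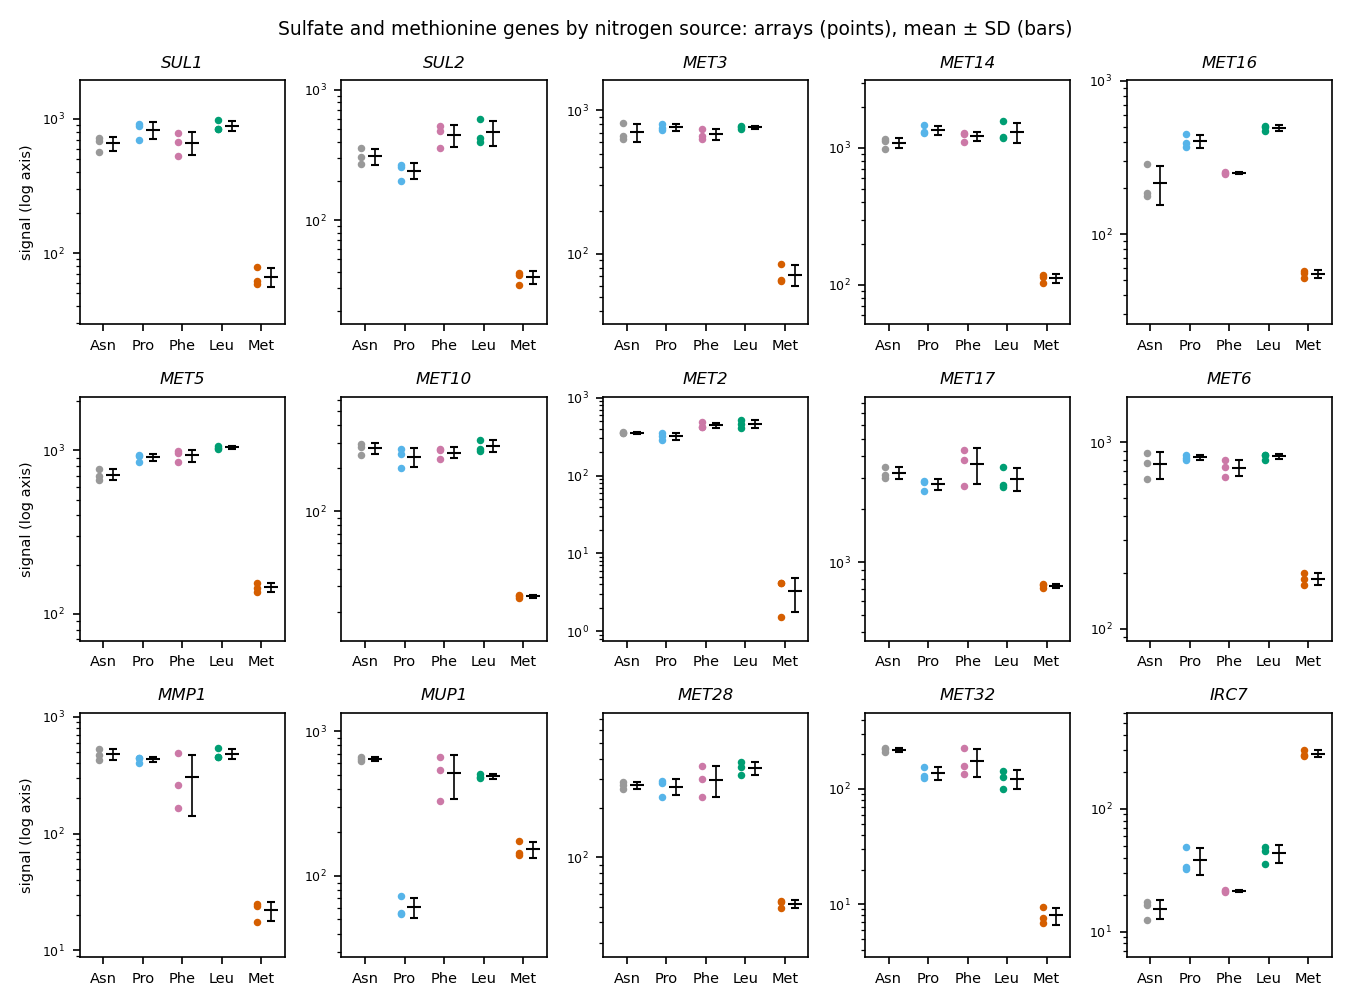
Signal (log axis) of 15 sulfate and methionine genes on each of 15 arrays, by nitrogen source, with points for arrays and bars for the mean ± SD of 3 arrays. In 14 panels every methionine array lies below every leucine array, and in the panel of IRC7 every methionine array lies above, between 266.9 and 301.6.

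Downstream of sulfide, 11 of 18 genes of homocysteine, cysteine and methionine synthesis were lower with methionine and 0 were higher, with a median of -0.78. MET2 (YNL277W), which acetylates homoserine to give the acceptor of sulfide, showed the widest gap of any called gene, with signals of 1.5, 4.2 and 4.2 with methionine and 404.9, 456 and 518.8 with leucine. Its methionine mean lay below the 25th percentile of all signals, 10, and against that bound it was at least 45.8-fold lower (log2 difference -7.10 ± 0.21 (SE), adjusted p = 7.23e-12). MHT1 (YLL062C), which makes methionine from homocysteine and S-methylmethionine, was below the same bound on methionine, with 0.8, 4.3 and 3.7 with methionine and 161.3, 157 and 152 with leucine, and was at least 15.7-fold lower (log2 difference -5.60 ± 0.23 (SE), adjusted p = 2.03e-10). All leucine arrays of both genes lay far above all methionine arrays.

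The enzymes that use these products were lower by smaller factors. MET17 (YLR303W), the sulfhydrylase that fixes sulfide, had signals of 713.2, 746.8 and 742.8 with methionine and 2744.6, 3478.5 and 2681.6 with leucine and was 4.01-fold lower (log2 difference -2.01 ± 0.15 (SE), adjusted p = 2.23e-07). MET6 (YER091C), the methionine synthase, had signals of 171.7, 199 and 184.6 with methionine and 855.4, 859.5 and 805.6 with leucine, 4.55-fold lower (log2 difference -2.18 ± 0.12 (SE), adjusted p = 7.3e-09). For both genes the leucine arrays did not overlap the methionine arrays. In transsulfuration, which links homocysteine and cysteine, all 4 genes were lower: STR3 by 5.13-fold (adjusted p = 5.33e-07), CYS3 by 3.71-fold (2.51e-07), STR2 by 1.62-fold (0.00162) and CYS4 by 1.55-fold (0.00299). The S-adenosylmethionine synthetase genes were both lower, SAM1 being 3.51-fold lower (log2 difference -1.81 ± 0.15 (SE), adjusted p = 5.86e-07) and SAM2 1.97-fold lower (log2 difference -0.98 ± 0.10 (SE), adjusted p = 9.3e-06). HOM3, the aspartate kinase at the head of the carbon chain, was 1.81-fold lower (adjusted p = 0.00202).

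Of the remaining 7 genes of the list, none passed the test. SAH1, which hydrolyses S-adenosylhomocysteine, gave 476, 442 and 429.7 with methionine and 469, 450.2 and 427.1 with leucine, with a log2 difference of 0.00 and a 95% interval of -0.27 to 0.27, which like the other intervals given here is not adjusted for multiple testing. HOM2 and HOM6, the middle and last enzymes from aspartate to homoserine, had intervals of -0.44 to 0.23 and -0.32 to 0.14, so their differences were small beside that of MET2, which acts on their product. SAM4, the S-adenosylmethionine-homocysteine methyltransferase, had an interval of -0.42 to 0.38, and MET13, a methylenetetrahydrofolate reductase, one of -0.42 to 0.51. MET12 and MET7 were at -0.38 and -0.34 (adjusted p = 0.0615 and 0.147). Leucine gave the highest mean of the 5 sources for 13 of the 18 genes.

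Among the regulators of the pathway, 3 of 7 genes were lower with methionine and 0 higher. MET32 (YDR253C), a DNA-binding partner of Met4, had signals of 9.5, 7.6 and 6.9 with methionine and 126.3, 143.4 and 99.3 with leucine, at least 12.2-fold lower (log2 difference -3.94 ± 0.19 (SE), adjusted p = 1.65e-09). MET28 (YIR017C), which stabilises the Met4 complex, had signals of 54, 53.5 and 48.9 with methionine and 382.7, 317.4 and 358 with leucine, 6.75-fold lower (log2 difference -2.76 ± 0.15 (SE), adjusted p = 4.29e-09). On neither gene did a methionine array reach the level of a leucine array. MET4 itself was 1.48-fold lower (log2 difference -0.56 ± 0.13 (SE), adjusted p = 0.00763), a call that was lost (adjusted p = 0.0509) without the methionine and leucine arrays of highest ribosomal RNA signal. MET31, the paralog of MET32, was at -0.35 with an interval of -0.68 to -0.02 (adjusted p = 0.13), and CBF1 at 0.34 with -0.18 to 0.86. MET30, the ubiquitin ligase subunit that restrains Met4, was at -0.48 with -0.88 to -0.07 (adjusted p = 0.0945). MET18 is on the list for its name, although its product is known for iron-sulfur cluster assembly, and it was not called by the probe set used (-0.21), while another of its 3 probe sets was called higher (1.54).

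Genes of methionine uptake and alternative sulfur sources held both directions. Lower with methionine were 4 of 9 tested genes, and the 1 higher was IRC7, which is not a permease gene. MMP1 (YLL061W), the S-methylmethionine permease, had signals of 24.9, 17.4 and 23.9 with methionine and 538.6, 452.5 and 455.7 with leucine, 22.1-fold lower (log2 difference -4.46 ± 0.27 (SE), adjusted p = 1.71e-08). MUP1 (YGR055W), the high-affinity methionine permease, had signals of 144, 175.2 and 138.5 with methionine and 474.2, 481.7 and 508.1 with leucine, 3.21-fold lower (log2 difference -1.68 ± 0.20 (SE), adjusted p = 4.2e-05). The methionine level of MUP1 was not the lowest of the series, since its means were 644 ± 19.8 with asparagine, 60.8 ± 9.88 with proline and 510.5 ± 171 with phenylalanine. MUP3, a low-affinity methionine permease, was 2.78-fold lower (adjusted p = 0.00137), and the sulfatase gene BDS1 at least 2.30-fold lower (adjusted p = 0.00394). IRC7 (YFR055W), a beta-lyase that cleaves cysteine and its conjugates, went the other way with 301.6, 273.7 and 266.9 with methionine and 49.2, 35.6 and 45 with leucine, 6.54-fold higher (log2 difference 2.71 ± 0.19 (SE), adjusted p = 1.14e-07). Its means elsewhere were 15.4 ± 2.70 with asparagine, 38.4 ± 9.32 with proline and 21.4 ± 0.551 with phenylalanine, so both sources lay above phenylalanine and asparagine, and methionine above all. For SAM3, the S-adenosylmethionine permease, 1 of 5 probe sets was called higher and 2 lower, and no direction is given.

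In methionine salvage and polyamine synthesis, 2 of 9 genes were lower and 2 higher. ADI1 (YMR009W), the acireductone dioxygenase of the last salvage step before the keto acid of methionine, had signals of 213.4, 295.5 and 278.4 with methionine and 819.9, 811.9 and 833.7 with leucine, 3.16-fold lower (log2 difference -1.66 ± 0.13 (SE), adjusted p = 2.26e-07) with no overlap. UTR4, the enzyme just before it in the salvage pathway, was 1.52-fold higher (adjusted p = 0.00162). SPE1, ornithine decarboxylase, was 2.10-fold higher (adjusted p = 0.0115, 0.0579 without leucine 2 and 0.0763 without both arrays of highest ribosomal RNA signal), and MRI1, an isomerase of the salvage pathway, 1.73-fold lower (adjusted p = 0.0149, 0.0667 without leucine 3 and 0.078 without methionine 2, and 0.213 without both methionine 2 and leucine 3). In serine, glycine and one-carbon metabolism, which supplies the methyl group of methionine, 5 of 17 genes were lower and 1 higher, and 3 were lower without leucine 2. SER33, a phosphoglycerate dehydrogenase, was 3.25-fold lower (log2 difference -1.70 ± 0.16 (SE), adjusted p = 2.94e-06). GLY1, the threonine aldolase, was 1.98-fold higher (adjusted p = 0.00384). Of 25 genes of glutathione and thiol redox, 3 were higher and 3 lower (12% each, beside 6.11% and 11.5% of all genes). The peroxiredoxin gene TSA2 was 3.50-fold and the peroxidase gene GPX1 1.95-fold higher (adjusted p = 1.99e-05 and 0.00052). GSH1, which catalyses the first step of glutathione synthesis, was 2.07-fold lower and the glutathione transporter gene OPT1 at least 3.10-fold lower (adjusted p = 0.000306 and 0.00033).

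Leucine synthesis ran the opposite way. Of 8 genes tested, 4 were higher with methionine and 0 lower, with a median of 0.90. LEU1 (YGL009C), the isopropylmalate isomerase, had signals of 920.0, 778.7 and 806.1 with methionine and 153.6, 126.9 and 144.6 with leucine, 5.90-fold higher (log2 difference 2.56 ± 0.13 (SE), adjusted p = 1.67e-09). LEU2 (YCL018W), the isopropylmalate dehydrogenase, had signals of 1962.4, 1823 and 1672.5 with methionine and 503.7, 589.9 and 586.8 with leucine, 3.25-fold higher (log2 difference 1.70 ± 0.10 (SE), adjusted p = 1.81e-08). The leucine arrays of both genes lay below every methionine array, and all 3 probe sets of LEU2 were called higher. OAC1 (YKL120W), a mitochondrial carrier of oxaloacetate and isopropylmalate, had signals of 1295, 1196.3 and 1173 with methionine and 249.9, 336.4 and 306.5 with leucine, 4.13-fold higher (log2 difference 2.05 ± 0.15 (SE), adjusted p = 2.23e-07). BAT1 (YHR208W), the mitochondrial branched-chain aminotransferase that makes leucine from its keto acid, had signals of 904.4, 930.2 and 837.1 with methionine and 277.2, 287.5 and 306.7 with leucine, 3.07-fold higher (log2 difference 1.62 ± 0.12 (SE), adjusted p = 2.21e-07). Here too no array of either source crossed into the other.

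For these 4 genes the leucine arrays were the lowest of the 5 sources. LEU1 means were 579 ± 73.4 with asparagine, 609 ± 8.67 with proline and 779.9 ± 96.9 with phenylalanine, beside 835 ± 74.9 with methionine and 142 ± 13.6 with leucine. For OAC1 and BAT1, as for LEU1, methionine had the highest mean of the 5 sources, at 1221 ± 64.8 for OAC1 against 655 ± 87.9 with asparagine, 627 ± 93.9 with proline and 786 ± 129.7 with phenylalanine, and at 891 ± 48.1 for BAT1 against 422 ± 23.3 with asparagine, 531 ± 23.6 with proline and 534 ± 96.2 with phenylalanine. The enzymes that feed isopropylmalate into the route did not pass the test. LEU4, the main isopropylmalate synthase, gave 2176.9, 2283.1 and 1794.7 with methionine and 1994.9, 2373.5 and 1824.3 with leucine, with an interval of -0.36 to 0.39, and its paralog LEU9 an interval of -0.44 to 0.30. The activator gene LEU3 was at 0.04 (-0.39 to 0.47), and BAT2, the cytosolic aminotransferase, at 0.19 (-0.12 to 0.50). BAT2 was far from unvarying over the series, with means of 245 ± 44.6 with asparagine, 606 ± 106 with proline and 1086 ± 79.2 with phenylalanine, beside 1329.8 ± 95.5 with leucine and 1516 ± 42.5 with methionine. Of 6 genes of isoleucine and valine synthesis and related threonine breakdown, ILV5, the acetohydroxyacid reductoisomerase, was 1.44-fold higher (log2 difference 0.52 ± 0.12 (SE), adjusted p = 0.00822), a call lost under quantile normalization (adjusted p = 0.0519), and the other 5 were not called.

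**Figure D3:**
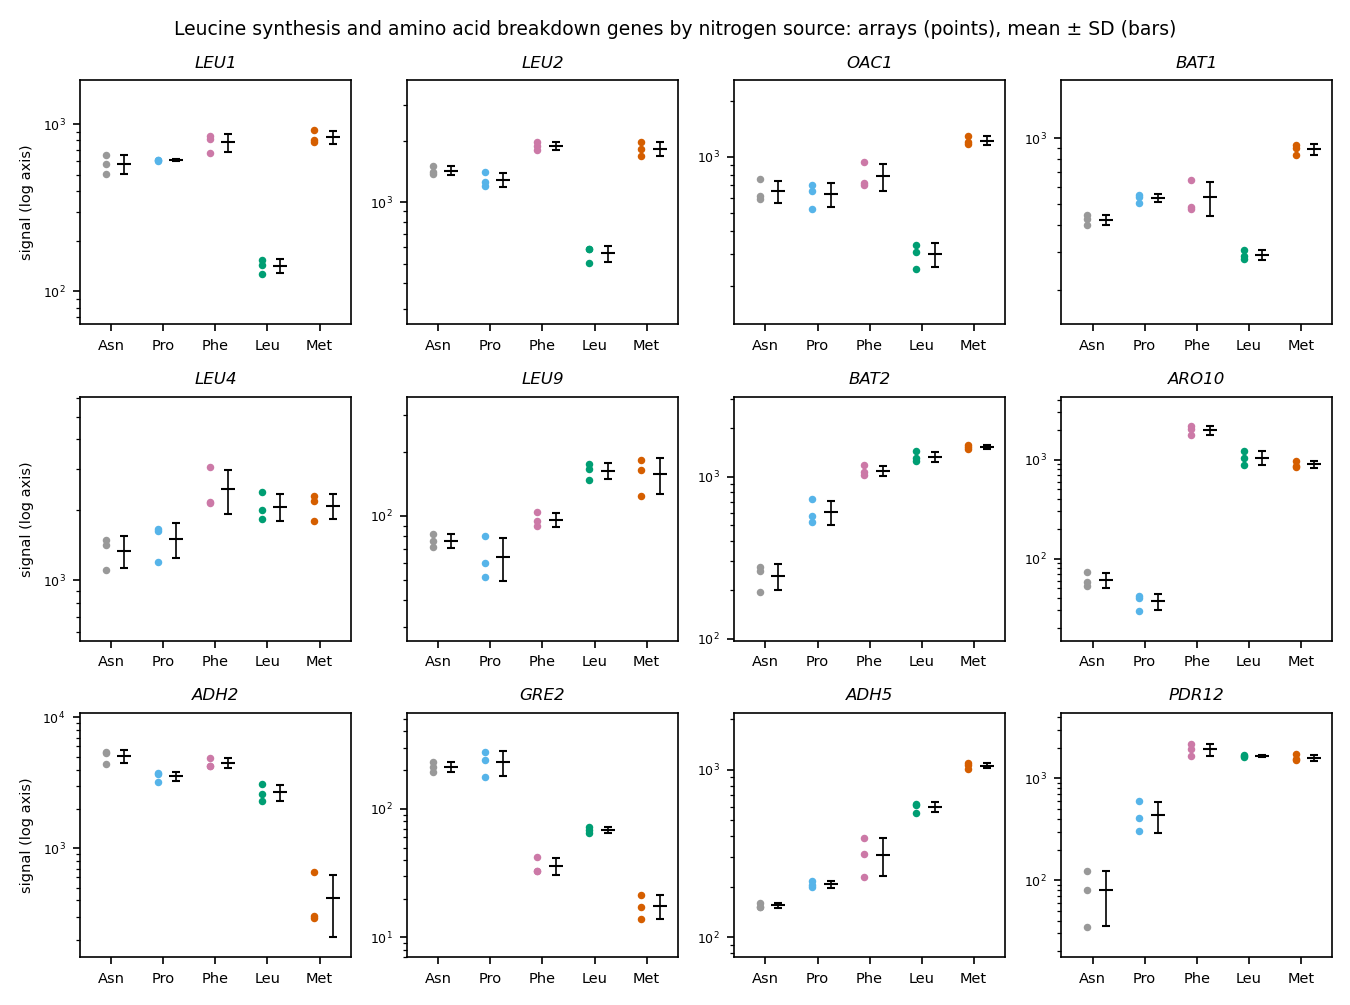
Signal (log axis) of 12 genes of leucine synthesis, the Ehrlich pathway and acid export on each of 15 arrays, by nitrogen source, with points for arrays and bars for the mean ± SD of 3 arrays. LEU1, LEU2, OAC1 and BAT1 are lowest with leucine, while ARO10 and PDR12 are near each other on leucine and methionine and low on asparagine.

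The Ehrlich pathway did not move as a unit: 3 of 19 genes were higher (15.8%), 4 lower (21.1%) and 12 not called, with a median of 0.11. Over all genes 6.11% were higher and 11.5% lower. The largest upward difference of this list, 1.62, was that of BAT1, which is also counted above under leucine synthesis. ARO10 (YDR380W), a broad-substrate keto acid decarboxylase, gave 978.4, 851.7 and 858.8 with methionine and 1041.8, 1215.5 and 880.3 with leucine, and the groups overlapped, with an interval of -0.57 to 0.14. Its means were 60.9 ± 10.6 with asparagine, 37.2 ± 6.85 with proline and 1996 ± 202 with phenylalanine, so leucine and methionine lay below phenylalanine and above asparagine and proline. ARO8, an aminotransferase of broad range, had an interval of -0.02 to 0.48. ARO9, the second aromatic aminotransferase, was 1.39-fold lower (log2 difference -0.47 ± 0.12 (SE), adjusted p = 0.0136), and that call was lost without leucine 1, leucine 2 or methionine 3 (adjusted p = 0.0526 to 0.0581) and after median centring (0.128).

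The largest downward differences of the list were those of reductases at the end of the pathway. ADH2 (YMR303C), the glucose-repressible alcohol dehydrogenase, had signals of 663.4, 305.2 and 294 with methionine and 2619, 3080.5 and 2315.9 with leucine, 6.80-fold lower (log2 difference -2.76 ± 0.23 (SE), adjusted p = 7.15e-07). Methionine 1 was above the other methionine arrays and still below every leucine array. GRE2 (YOL151W), a reductase known to act on methylglyoxal and on isovaleraldehyde, the aldehyde of leucine, had signals of 14, 17.4 and 21.5 with methionine and 71.8, 68.2 and 64.6 with leucine, 3.92-fold lower (log2 difference -1.97 ± 0.19 (SE), adjusted p = 3.58e-06). Its leucine level was itself below 212 ± 19.2 with asparagine and 232 ± 51.9 with proline. ADH5 (YBR145W) had signals of 1009.2, 1086.4 and 1067.4 with methionine and 548.7, 615.2 and 625.8 with leucine, 1.77-fold higher (log2 difference 0.82 ± 0.15 (SE), adjusted p = 0.00166), with means of 155 ± 5.03 with asparagine, 206 ± 9.67 with proline and 310.0 ± 79.2 with phenylalanine. ADH1, the main fermentative enzyme, was 1.42-fold higher (adjusted p = 0.0102, 0.114 without the arrays of highest ribosomal RNA signal). PDC6, a minor pyruvate decarboxylase gene, was 1.88-fold lower (adjusted p = 0.0171, 0.0789 without leucine 3 and 0.0834 without methionine 2, and 0.241 without both methionine 2 and leucine 3).

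Of 11 genes of acid handling and export, 2 were lower (18.2%) and 0 higher, beside 11.5% and 6.11% of all genes. Without both arrays of highest ribosomal RNA signal 0 were lower. PDR12 (YPL058C), the exporter of weak organic acids, gave 1726.5, 1550.5 and 1528.8 with methionine and 1652.8, 1696.4 and 1622.7 with leucine, with an interval of -0.75 to 0.65. Both groups overlapped far above asparagine, and the other means were 79.6 ± 44.3 with asparagine, 439 ± 149 with proline and 1933 ± 265 with phenylalanine. ESBP6, a monocarboxylate permease homologue, had an interval of -0.06 to 0.50, and WAR1, the activator of PDR12, one of -0.47 to 0.13. ATO3, an ammonium exporter homologue, was 1.62-fold lower (adjusted p = 0.00934, 0.058 without the arrays of highest ribosomal RNA signal). ALD5, a mitochondrial aldehyde dehydrogenase, was 1.71-fold lower (adjusted p = 0.0169, 0.0626 without leucine 1 and 0.0773 without methionine 2, and 0.101 without both methionine 2 and leucine 3).

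Of 34 genes under nitrogen catabolite repression, which preferred nitrogen sources keep off, 10 were called higher with methionine, 0 lower and 24 not called, with a median of 0.28, beside 6.11% of all genes called higher. That count was 6 without leucine 2, methionine 2 or methionine 3. PUT1 (YLR142W), proline oxidase, had signals of 582.1, 631.9 and 708.3 with methionine and 154, 162.5 and 171.8 with leucine, 3.93-fold higher (log2 difference 1.97 ± 0.17 (SE), adjusted p = 1.04e-06), while its means were 73.9 ± 16.6 with asparagine, 1169 ± 144 with proline and 219 ± 39.0 with phenylalanine. Among the 5 sources proline alone had a higher mean than methionine. PUT2, the next enzyme of proline breakdown, was higher by 0.58 on the log2 scale (adjusted p = 0.00353). The vacuolar aminopeptidase gene APE1 was 1.71-fold and the allantoinase gene DAL1 2.39-fold higher (adjusted p = 0.00194 and 0.00423). Methionine gave the highest mean of the 5 sources for 18 of the 34 genes, beside 19.8% over all genes, and leucine for 5. In central nitrogen metabolism, 2 of 8 genes were higher and 2 lower. ALT1, alanine transaminase, was 2.25-fold higher (log2 difference 1.17 ± 0.14 (SE), adjusted p = 5.64e-05), and GDH2, the glutamate dehydrogenase that releases ammonium, 1.79-fold higher (log2 difference 0.84 ± 0.14 (SE), adjusted p = 0.0011). AAT1, the mitochondrial aspartate aminotransferase, was 1.71-fold lower (log2 difference -0.77 ± 0.12 (SE), adjusted p = 0.000597), and its cytosolic counterpart AAT2 1.46-fold lower (adjusted p = 0.0245), a call lost without leucine 1, 2 or 3 or methionine 2 or 3 (0.0548 to 0.0856), after median centring (0.134) and without both arrays of highest ribosomal RNA signal (0.118).

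Amino acid synthesis outside these branches was lower for part of the genes with methionine. For arginine and histidine 5 of 14 genes were lower, for lysine 3 of 11 and for the aromatic amino acids 3 of 12, with 0 higher in each, and the medians were -0.33, -0.44 and -0.21. ODC2 (YOR222W), a mitochondrial carrier of oxodicarboxylates used in lysine synthesis, had signals of 166.4, 230.2 and 203.2 with methionine and 731.5, 750.8 and 801.4 with leucine, 3.84-fold lower (log2 difference -1.94 ± 0.28 (SE), adjusted p = 0.000256). Its means elsewhere were 254 ± 96.1 with asparagine, 367 ± 85.9 with proline and 274 ± 89.2 with phenylalanine, so leucine stood above the rest. LYS21, homocitrate synthase, was 1.65-fold lower and ARG7, which recycles the acetyl group in ornithine synthesis, 2.16-fold (adjusted p = 0.000351 and 0.000438). HIS5 of histidine synthesis was 1.89-fold and TRP3 of tryptophan synthesis 1.70-fold lower (adjusted p = 0.000269 and 0.000597). Leucine gave the highest mean of the 5 sources for 11 of the 14 arginine and histidine genes, 9 of the 11 lysine genes and 10 of the 12 aromatic genes.

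Stress genes were higher with methionine. Of 24 general stress genes, 17 were higher with methionine and 0 lower, with a median of 1.10, and 15 were called higher without both arrays of high ribosomal RNA signal. YGP1 (YNL160W), a secreted glycoprotein induced on nutrient limitation, had signals of 957.2, 1117.9 and 1097.5 with methionine and 99.8, 96.4 and 105.8 with leucine, 10.5-fold higher (log2 difference 3.39 ± 0.18 (SE), adjusted p = 4.29e-09). HSP12 (YFL014W), a small membrane-associated stress protein, had signals of 2121.9, 2419.9 and 2231.9 with methionine and 576.8, 586.2 and 420.0 with leucine, 4.32-fold higher (log2 difference 2.11 ± 0.17 (SE), adjusted p = 3.56e-07). SPI1 (YER150W), a cell wall protein of stationary phase, had signals of 531.7, 564.5 and 462.9 with methionine and 121.5, 125.5 and 137.6 with leucine, 4.05-fold higher (log2 difference 2.02 ± 0.13 (SE), adjusted p = 5.21e-08). In each of these genes the leucine arrays lay below all methionine arrays. They were also below the other sources, as with HSP12, whose means were 3761 ± 546 with asparagine, 3287 ± 235 with proline and 2626 ± 579 with phenylalanine. Leucine gave the lowest mean of the 5 sources for 20 of the 24 genes, where over all genes it did so for 11.9%, and methionine gave the highest for 0.

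HSP30 (YCR021C), a plasma membrane protein that restrains the proton pump, was the called gene furthest above leucine, with 1064.7, 1185.3 and 1067.3 with methionine and 45.2, 46.2 and 72.6 with leucine, 20.7-fold higher (log2 difference 4.37 ± 0.23 (SE), adjusted p = 3.92e-09). Elsewhere its means were 688 ± 119 with asparagine, 1531 ± 176 with proline and 505 ± 177 with phenylalanine, and leucine was the low source. Of 20 genes of the heat shock chaperone list, which also holds HSP30, 7 were higher and 0 lower, with 4 higher without methionine 3. SSA4, a stress-induced Hsp70, was 3.41-fold higher (log2 difference 1.77 ± 0.15 (SE), adjusted p = 1.07e-06), and the cochaperone gene STI1 1.45-fold (adjusted p = 0.00137). Of 17 storage carbohydrate genes, 7 were higher and 2 lower, and 3 were higher without leucine 2, methionine 2 or methionine 3. TSL1, a subunit of trehalose synthase, was 2.76-fold, GSY2, glycogen synthase, 2.02-fold and the phosphoglucomutase gene PGM2 2.30-fold higher (adjusted p = 1.82e-05, 1.44e-05 and 0.000596), while its paralog PGM1 was 2.03-fold lower (adjusted p = 0.000242).

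In sugar metabolism, 12 of 18 genes of glycolysis and ethanol formation were higher with methionine and 0 lower, with a median of 0.50. The count was 6 without both arrays of high ribosomal RNA signal. TDH1, an isoform of glyceraldehyde-3-phosphate dehydrogenase, had signals of 1450.7, 1499.8 and 1471.9 with methionine and 610.8, 508.4 and 643.9 with leucine, 2.52-fold higher (log2 difference 1.33 ± 0.14 (SE), adjusted p = 1.51e-05). The groups were apart, and for 11 of the 18 genes leucine was the lowest of the 5 sources. ENO1, an enolase whose probe set shares sequence with other genes, was 2.27-fold higher, the hexokinase gene HXK1 1.64-fold and the phosphofructokinase gene PFK2 1.54-fold (adjusted p = 1.62e-06, 0.000403 and 0.00114). Transporters of hexoses and other substrates went both ways, with 2 of 14 higher and 2 lower (14.3% each, beside 6.11% and 11.5% of all genes). HXT3, a low-affinity glucose transporter, gave 798.9, 908.1 and 785 with methionine and 186.4, 162.6 and 547 with leucine, 3.25-fold higher (log2 difference 1.70 ± 0.32 (SE), adjusted p = 0.00225). Leucine 3 stood well above the other leucine arrays. MAL11, a broad alpha-glucoside permease, was 4.70-fold higher (log2 difference 2.23 ± 0.30 (SE), adjusted p = 0.000131). STL1 (YDR536W), the glycerol proton symporter, had signals of 12.5, 16.9 and 16 with methionine and 205.6, 179.1 and 132.8 with leucine, 11.3-fold lower (log2 difference -3.50 ± 0.21 (SE), adjusted p = 1.18e-08), and HXT2, a high-affinity transporter, was 1.76-fold lower (adjusted p = 0.0032).

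Peroxisomal beta oxidation, the route of fatty acid breakdown in yeast, was lower with methionine: 17 of 21 genes were called lower and 1 higher, with a median of -0.84. Leaving out 1 array gave 14 to 16 lower, and leaving out both arrays of high ribosomal RNA signal 12. FOX2 (YKR009C), the multifunctional enzyme of the cycle, had signals of 374.6, 360.5 and 393.1 with methionine and 951.1, 1020.7 and 888.2 with leucine, 2.53-fold lower (log2 difference -1.34 ± 0.10 (SE), adjusted p = 1.67e-07). PXA1 (YPL147W), a subunit of the importer of long-chain fatty acids, had signals of 31, 27.2 and 40.2 with methionine and 121.8, 100.5 and 126.5 with leucine, 3.57-fold lower (log2 difference -1.84 ± 0.19 (SE), adjusted p = 9.3e-06). All methionine arrays lay below all leucine arrays for both. ECI1 and SPS19, auxiliary enzymes for unsaturated fatty acids, were 2.35-fold and 1.89-fold lower (adjusted p = 7.66e-05 and 5.64e-05). Methionine was the lowest of the 5 sources for 16 of the 21 genes, and for FOX2 the other means were 1192 ± 44.4 with asparagine, 1006 ± 80.8 with proline and 1004 ± 43.9 with phenylalanine, beside 953 ± 66.3 with leucine.

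Among 24 tricarboxylic acid and glyoxylate genes, 4 were higher (16.7%), 1 lower (4.17%) and 19 not called, with a median of 0.07. Over all genes 6.11% were higher and 11.5% lower. ICL1 (YER065C), isocitrate lyase of the glyoxylate cycle, had signals of 1038, 1061.2 and 992.7 with methionine and 264.3, 276.9 and 222.4 with leucine, 4.07-fold higher (log2 difference 2.02 ± 0.12 (SE), adjusted p = 1.21e-08), with means of 675 ± 44.9 with asparagine, 922 ± 98.8 with proline and 457 ± 42.9 with phenylalanine. Leucine was the lowest source. KGD1, a subunit of oxoglutarate dehydrogenase, was 1.56-fold higher (adjusted p = 0.001). Of 34 oxidative phosphorylation genes 2 were higher (5.88%) and 1 lower (2.94%), shares below those of all genes. Leaving out any 1 array gave 1 higher. Called in each case was CYC7, the minor isoform of cytochrome c, at 2.91-fold (adjusted p = 5.77e-05). Among the 12 largest differences upward were also YRO2 (5.67-fold), FMP45 (7.82-fold) and YNL194C (at least 8.41-fold), with adjusted p of 5.52e-06, 0.00077 and 2.58e-05. FDH1, formate dehydrogenase, had signals of 523.3, 354.6 and 351.7 with methionine and 59.8, 56.3 and 52.1 with leucine from a probe set that shares sequence with other genes, 7.19-fold higher (log2 difference 2.85 ± 0.27 (SE), adjusted p = 3.5e-06), and its means with asparagine and proline were 1685 ± 157 and 1306 ± 97.1.

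Of the largest differences upward, 2 rested on uneven methionine arrays. COX1, a mitochondrially encoded subunit of cytochrome c oxidase, had signals of 96.5, 649.3 and 374.4 with methionine and 22.8, 82.7 and 39.2 with leucine (adjusted p = 0.0172). Another COX1 probe set was called higher, with means of 14.5 with methionine and 3.43 with leucine (adjusted p = 0.0244). A further COX1 probe set was not called, with means of 19.4 and 3.23 (adjusted p = 0.182), and both were dim with leucine. The small nucleolar RNA gene SNR67 had signals of 53, 267.4 and 170.6 with methionine and 24.2, 16.1 and 13 with leucine (adjusted p = 0.0285). For both genes methionine 2 was the highest, the array that also had the highest ribosomal RNA control signal. Both calls were kept with that control signal as a covariate. Its part in the differences was not tested further than by this covariate and by leaving out arrays. Without methionine 2 the adjusted p was 0.0896 for COX1 and 0.12 for SNR67, and the calls were also lost without leucine 1 or methionine 3 for COX1 (0.0712 and 0.058) and without leucine 2, leucine 3 or methionine 3 for SNR67 (0.0772 to 0.0849). Without both arrays of highest ribosomal RNA signal the adjusted p was 0.165 for COX1 and 0.24 for SNR67, and for SNR67 it was 0.071 with no filter on low signals.

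Metal and lipid genes differed in both directions. Of 24 iron uptake and iron response genes, 8 were lower and 1 higher, and 5 were lower without leucine 2, leucine 3, methionine 2 or methionine 3. FIT3, a cell wall mannoprotein that retains iron carriers, had signals of 1749.8, 876.2 and 861 with methionine and 3321.4, 3723.8 and 3248.1 with leucine, 3.12-fold lower (log2 difference -1.64 ± 0.27 (SE), adjusted p = 0.000785). Methionine 1 was well above the other methionine arrays. HMX1, haem oxygenase, was 1.79-fold lower and ISU2, a scaffold of iron-sulfur clusters, 2.76-fold higher (adjusted p = 0.000469 and 5.99e-06). Of 25 ergosterol genes, 7 were lower and 1 higher, and without methionine 2 the lower count was 2. ERG6, the sterol methyltransferase that uses S-adenosylmethionine, was 1.58-fold lower (log2 difference -0.66 ± 0.11 (SE), adjusted p = 0.000702). In phospholipid synthesis 4 of 17 genes were higher and 0 lower, among them OPI3, a phospholipid methyltransferase, and CHO1, phosphatidylserine synthase (1.40-fold and 1.47-fold higher, adjusted p = 0.0032 and 0.00658). INO1, inositol phosphate synthase, was 1.88-fold higher (adjusted p = 0.00146).

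Few genes of the growth machinery were called at the fixed dilution rate. By limma, 0 of 19 cytosolic ribosomal protein genes were called, with 0 higher and 0 lower at an unadjusted p under 0.05, and the signal of RPP0, the stalk protein of the large subunit, had an interval of -0.11 to 0.56. Of 30 ribosome assembly genes 1 was higher and 3 lower, of 33 mitochondrial ribosomal protein genes 1 and 1, of 32 proteasome genes 0 and 1, and of 22 aminoacyl-tRNA synthetase genes 0 and 2. The 3 ribosome assembly genes became 0 without leucine 2, the synthetase genes 0 without leucine 3 or methionine 3, and the proteasome gene 0 without leucine 2 or methionine 2. In the full fit these shares were below those of all genes. Of 7 MATa haploid genes, 4 were higher and 0 lower. In each list in the plot of list medians that is not described here, at most 4 genes were called in either direction. BAR1, the protease that degrades alpha-factor, had signals of 503, 468.4 and 490.6 with methionine and 147.8, 240.9 and 195 with leucine, 2.55-fold higher (log2 difference 1.35 ± 0.20 (SE), adjusted p = 0.000408), and STE2, the alpha-factor receptor, was 1.94-fold higher (log2 difference 0.96 ± 0.19 (SE), adjusted p = 0.00312). In a bulk culture, fewer cells in 1 state and less RNA per cell cannot be told apart.

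**Figure D4:**
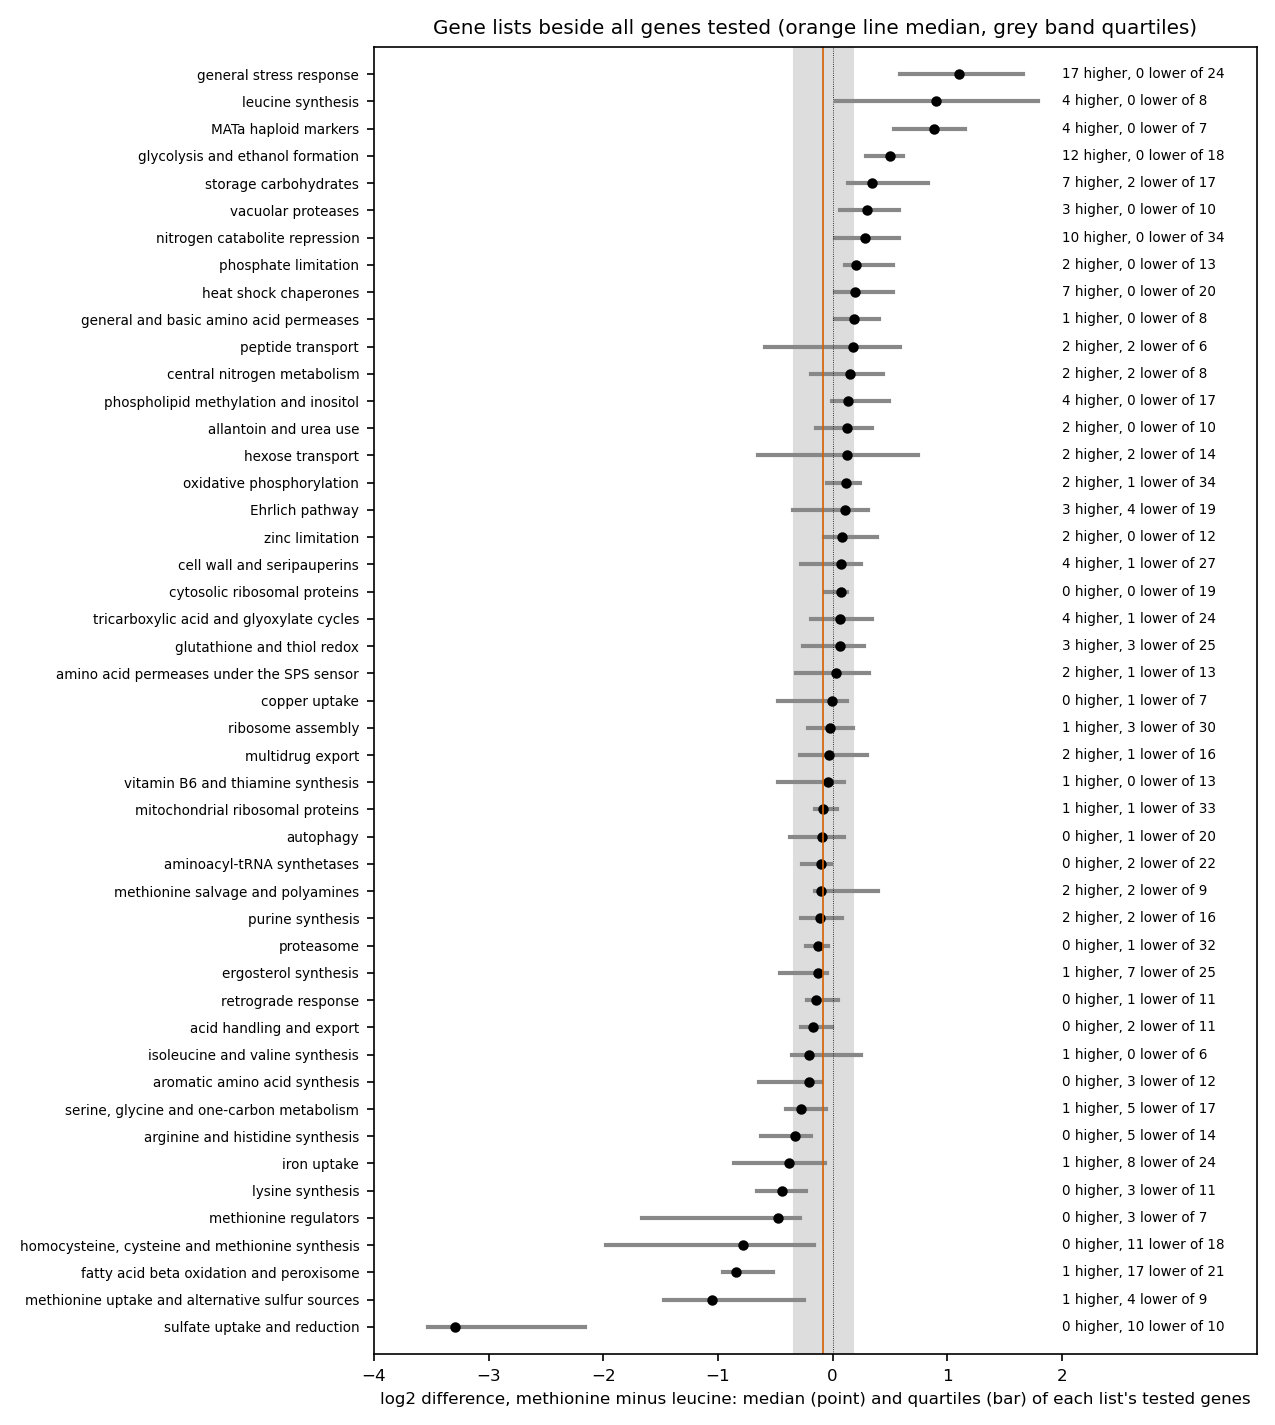
Median log2 difference between methionine and leucine (points) with quartiles (bars) for lists with 5 or more tested genes. The line and band give the median (-0.08) and quartiles of all 5384 genes. The MATalpha and meiosis marker lists and the lists chosen after their values were seen are not drawn. Sulfate uptake and reduction lies lowest at -3.29 and the general stress response highest at 1.10.

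The level of each list over the 5 sources showed which of the amino acids stood apart. Relative to each gene's mean over 15 arrays, the median of sulfate uptake and reduction was -2.35 with methionine and 0.76 with leucine, between 0.33 and 0.54 elsewhere. The median of the general stress response was -1.40 with leucine and -0.16 with methionine, while it was 0.83 with asparagine and 1.04 with proline. Nitrogen catabolite repressed genes were at 0.71 with methionine and 0.43 with leucine, both above asparagine at -1.21. Peroxisomal genes were at -0.83 with methionine and from 0.04 to 0.24 with the other 4 sources, leucine included. The lists of leucine synthesis and arginine and histidine synthesis were at -0.40 and 0.64 with leucine, and at 0.66 and 0.24 with methionine.

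**Figure D5:**
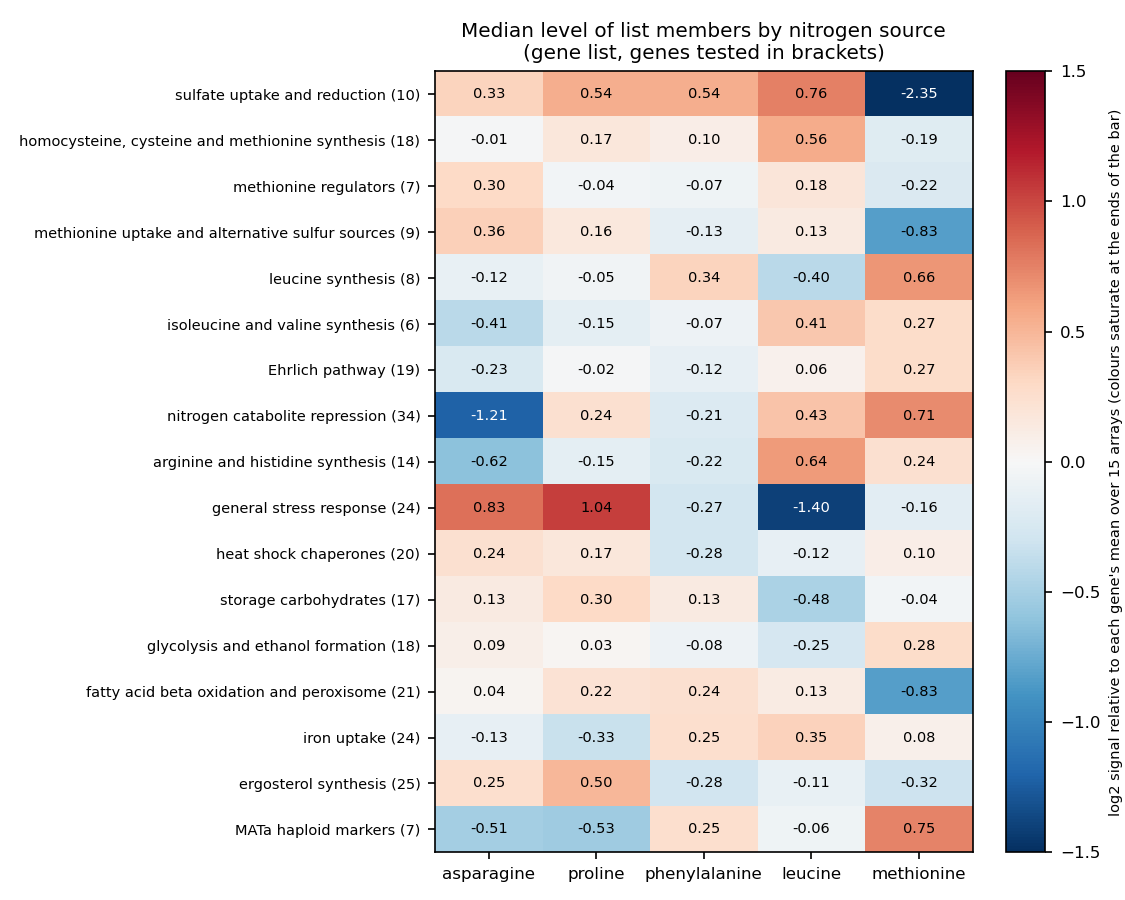
Median log2 signal of the tested members of 17 gene lists by nitrogen source, relative to each gene's mean over 15 arrays (number in each cell). The methionine column holds the lowest cell, -2.35 for sulfate uptake and reduction, and the leucine column the second lowest, -1.40 for the general stress response.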

How the data were processed

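Messenger RNA of the 15 samples was measured on 1-colour Affymetrix YG_S98 arrays. The authors deposited a signal intensity for each probe set of each array. Per the submitters' processing notes MAS5 produced it, and the sources used here give neither its version nor its scaling. The number of arrays limits the precision.

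Of 9335 probe sets 60 controls were removed. By the platform annotation 6504 of the other 9275 name 1 gene, 328 several and 2443 none, and only the first are named, all matched in the RefSeq table. Signals were floored at 2.1, their 10th percentile, and log2 transformed, and the 7445 probe sets (80.3%) above their array's 25th percentile on at least 3 arrays were tested. Of these 1234 carry a suffix of shared sequence, and 310 values were 0. A linear model with a mean for each source was fitted to all 15 arrays with limma 3.58.1 (R 4.3.3) under a trended prior, with 2-sided tests and Benjamini-Hochberg adjustment, and was tested on simulated data. A called fold is at least the ratio to 10, the 25th percentile of signal, where a mean was at or below it. A gene with several tested probe sets (270) takes that of the highest mean; 3 of these were called in both directions. Genes followed through the alternatives (270) include the 12 largest differences each way and all tested members of the sulfur, leucine, Ehrlich and acid lists. They also include up to 4 of each other list, and not all of them are named in the text. Members and lists were chosen with earlier results of these data known, and lists have counts and medians with no test. Alternatives were other scaling, floors, filters, priors, covariates and arrays left out.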

Additional observations from a re-analysis of the deposited data

How the results depend on the processing

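Over 20 alternatives, 121 of the 179 called genes among the 270 followed never lost the call, and none reversed. Of probe sets called (1404, with 523 higher and 881 lower with methionine), leaving out 1 array gave 699 to 985 called, 249 to 374 higher and 450 to 630 lower. Leaving out both the methionine and the leucine array of highest ribosomal RNA signal, an alternative chosen after seeing the data, gave 514, with 171 higher and 343 lower. Array weights gave 2590, with 961 and 1629. A fit of the 6 arrays alone called 2000, with 842 higher and 1158 lower, and centring on the median 789 higher and 536 lower. Requiring at least 2-fold left 526, with 226 and 300. Leaving out arrays of either group means fewer replicates and the 2-fold rule is stricter by construction, and the cause of the other shifts was not tested.

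With the replicate number as a block, 1413 probe sets were called, 539 higher and 874 lower. Same-numbered methionine and leucine arrays correlated at -0.0466, 0.0188 and -0.0428 after subtraction of group means, so the numbers are not known to pair the arrays. Signals near the floor limit dim genes, whose folds are bounds.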

Other observations

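Further gene groups were chosen after their values were seen, so their counts describe these arrays only. Of 5 genes of biotin synthesis and uptake, 4 were lower with methionine and BIO2, biotin synthase, was not called. BIO5, which carries a biotin precursor into the cell, had signals of 21.6, 15.5 and 15.6 with methionine and 64.8, 63.6 and 72.8 with leucine, 3.86-fold lower (log2 difference -1.95 ± 0.20 (SE), adjusted p = 8.61e-06). BIO3 and BIO4, the middle enzymes of the route, of which BIO3 takes its amino group from S-adenosylmethionine, were 2.24-fold and 2.76-fold lower (adjusted p = 0.00141 and 3.37e-06), and the biotin permease gene VHT1 1.55-fold lower (0.00289). Of 9 genes of methionine sulfoxide repair and glutathione breakdown, 5 were lower and 0 higher. MXR1, a methionine sulfoxide reductase, had signals of 63.3, 39.4 and 49.9 with methionine and 329.2, 272.5 and 282.4 with leucine, 5.88-fold lower (log2 difference -2.56 ± 0.17 (SE), adjusted p = 4.86e-08), with means of 326 ± 45.3 with asparagine, 238 ± 33.4 with proline and 218 ± 8.79 with phenylalanine. GRX8, a glutaredoxin, was 4.16-fold lower (log2 difference -2.06 ± 0.20 (SE), adjusted p = 5.52e-06). In the methylcitrate cycle, which breaks down propionyl-CoA, CIT3 and ICL2 were 2.65-fold and 2.59-fold lower of 3 genes (adjusted p = 0.00039 and 1.25e-07), while leucine was level with phenylalanine for ICL2, at 1222 ± 23.0 and 1218 ± 44.8.

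Pyrimidine synthesis and salvage held 5 genes of 12 that were higher with methionine and 0 lower. FUR4, the uracil permease, had signals of 305.7, 324.1 and 296.5 with methionine and 120.3, 111.2 and 139.4 with leucine, 2.51-fold higher (log2 difference 1.33 ± 0.19 (SE), adjusted p = 0.000244). FUR1, uracil phosphoribosyltransferase, and URA8, a CTP synthase, were 2.24-fold and 2.47-fold higher (adjusted p = 0.000305 and 1.39e-06). Of 20 pheromone response genes, 6 were higher and 1 lower, and 3 were higher without leucine 1, methionine 1 or methionine 3. SST2, which desensitises cells to pheromone, had signals of 69.3, 98 and 81.5 with methionine and 25, 18.8 and 31.2 with leucine, 3.35-fold higher (log2 difference 1.75 ± 0.27 (SE), adjusted p = 0.000482). FAR1, the cell cycle inhibitor of the response, and AGA1, the anchor of a-agglutinin, were 2.43-fold and 2.00-fold higher (adjusted p = 0.000217 and 0.00538). All 3 methionine arrays were above every array of the other 4 sources for SST2.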
